A study of Sus scrofa with 15 samples.

Results

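The nuclear-encoded subunits of the 5 oxidative phosphorylation (OXPHOS) complexes were followed through the maturation of pig oocytes. Members were the genes whose symbol starts with NDUFA, NDUFB, NDUFC, NDUFS, NDUFV, UQCR, COX4I, COX5, COX6, COX7, COX8 or ATP5, or is SDHA, SDHB, SDHC, SDHD or CYC1, and the assembly factors that share such a start (NDUFAF and UQCC) were left out. This gave 73 members of 22516 genes, with 32 in complex I, 4 in complex II, 8 in complex III, 16 in complex IV and 13 in complex V. NDUFA4 and NDUFA4L2 were counted with complex IV. Symbols were known for 15527 of the genes, and 4 further genes of these families (NDUFB3, NDUFS7, NDUFV3 and ATP5PD) are not counted, since they are named only in a list of differentially expressed genes of the study.

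OXPHOS takes place in the inner mitochondrial membrane. Complex I oxidises NADH, complex II oxidises succinate, both pass electrons by way of ubiquinone, complex III, cytochrome c and complex IV to oxygen, and complex V (ATP synthase) uses the proton gradient to make ATP. Most subunits are encoded in the nucleus and imported, a few are encoded by the mitochondrial genome, and complex II has nuclear-encoded subunits alone. The fully grown oocyte carries a very large stock of mitochondria, and its nucleus makes little or no RNA between the germinal vesicle stage and fertilisation.

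RNAseq had been performed on oocytes from abattoir sow ovaries in 3 groups with 5 libraries each, and 15 oocytes were pooled for a library. Germinal vesicle (GV) oocytes came straight from fresh cumulus oocyte complexes without culture. MII oocytes had been matured in vitro for 44 h and showed a first polar body, whereas ‘damaged’ oocytes had the same 44 h of culture and showed none. MII and ‘damaged’ libraries together are called MIX, and they differ from GV both in stage and in the time in culture, which cannot be told apart.

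Estimated counts added up to 6.40 M in GV replicate 3, taken as the GV library that the study removed for its low depth, and to between 11.96 and 23.6 M in the other 14 libraries, on which all tests rest. In that library the mitochondrially encoded subunits held 29.1% of all TPM (transcripts per 1 M, a level per length), while the 4 other GV libraries had 5.44 to 8.71%. The oocyte label was checked against 13 of 16 listed oocyte genes, since the others had no row by symbol. All 13 passed the filter on low counts. Their summed level was 11072 to 12823 CPM in GV and 5564 to 8089 CPM in MIX. CPM here are counts per 1 M of library size scaled by TMM factors. Of 20 listed cumulus and granulosa genes 17 had a row, while CYP19A1, FOXL2 and HSD3B1 had none by symbol. For 3 of the 17 (AMHR2, LHCGR and PTX3) no counts were recovered here. Another 8 stayed under 2 CPM in every library, namely FSHR, CYP11A1, AMH, INHA, INHBA, HAS2, NR5A1 and STAR. TNFAIP6, which was not tested, had at most 3.18 CPM, in MII. The summed level of the list was 242 to 419 CPM in GV and 914 to 1226 CPM in MIX. Of the 6 that could be tested, VCAN, FST, PTGS2 and KITLG were higher in MIX (log2 fold change 2.20 ± 0.14, 1.54 ± 0.16, 1.28 ± 0.29 and 1.04 ± 0.17), GREM1 was lower (-1.58 ± 0.16) and STAR did not pass. Without VCAN and KITLG the sum was 23.5 to 28.0 CPM in GV and 22.4 to 33.1 CPM in MIX, within which FST went from 7.23 to 21.1 CPM on average and GREM1 from 15.5 to 5.19 CPM. These genes moved with the results below, and their part in them was not tested. Theca and stroma genes summed to at most 11.14 CPM and blood genes to at most 2.72 CPM in any of the 14 libraries.

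Comparing MIX with GV oocytes, transcripts of most OXPHOS subunits were lower after maturation, up to 46.3-fold for NDUFB7, while a smaller group that included SDHC, NDUFB1, ATP5MC3 and NDUFB6 was higher by between 1.65-fold and 3.65-fold. Of the 70 members that passed the filter on low counts, 47 fell and 11 rose at an FDR under 0.01 (limma-voom with TMM factors), that is 67.1% and 15.7%, against 37.0% and 30.0% of all 13222 genes tested (67.0% in either direction). With an absolute log2 fold change over 2 as well, the study's threshold for a differentially expressed gene (DEG), 24 members (34.3%) were lower and 0 higher, against 16.8% and 4.27% of all genes. edgeR and DESeq2 also found 0 higher members by this threshold, and 61 members had an unadjusted p under 0.05 in either direction (limma-voom), against 76.3% of all genes. The median log2 fold change of the members was -1.10, against -0.16 over all genes. The 24 members lower by the DEG threshold include NDUFV1 and ATP5F1D, which passed the filter on low counts through the GV libraries alone. In the libraries themselves, all 10 MIX values lay below all 4 GV values for 39 members and above them for 10, against 29.4% and 24.3% of all genes, and the ranges of 21 members overlapped. A library pools oocytes, so a lower level in each oocyte and fewer oocytes carrying a transcript cannot be told apart. Libraries hold amplified cDNA, so a change in the amount of a transcript and in how well it was copied cannot be told apart either.

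The scaling sets where the line between lower and higher falls. On library sizes alone the median of all genes was -1.06 and that of the members -2.0, and 57 members were lower and 4 higher at an FDR under 0.01, against 60.0% and 11.9% of all genes. The 4 that stayed higher were SDHC, NDUFB1, NDUFB6 and ATP5MC3. NDUFA1, SDHB, COX8A, ATP5F1C and ATP5MG kept a positive log2 fold change without passing, and NDUFB5 (-0.07) and NDUFA4 (-0.18) turned negative without passing. Wherever one of these 7 is said to have risen below, that holds with TMM factors, the scaling of all log2 fold changes and CPM given here, and the value after ± of a log2 fold change is its standard error.

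**Figure D1:**
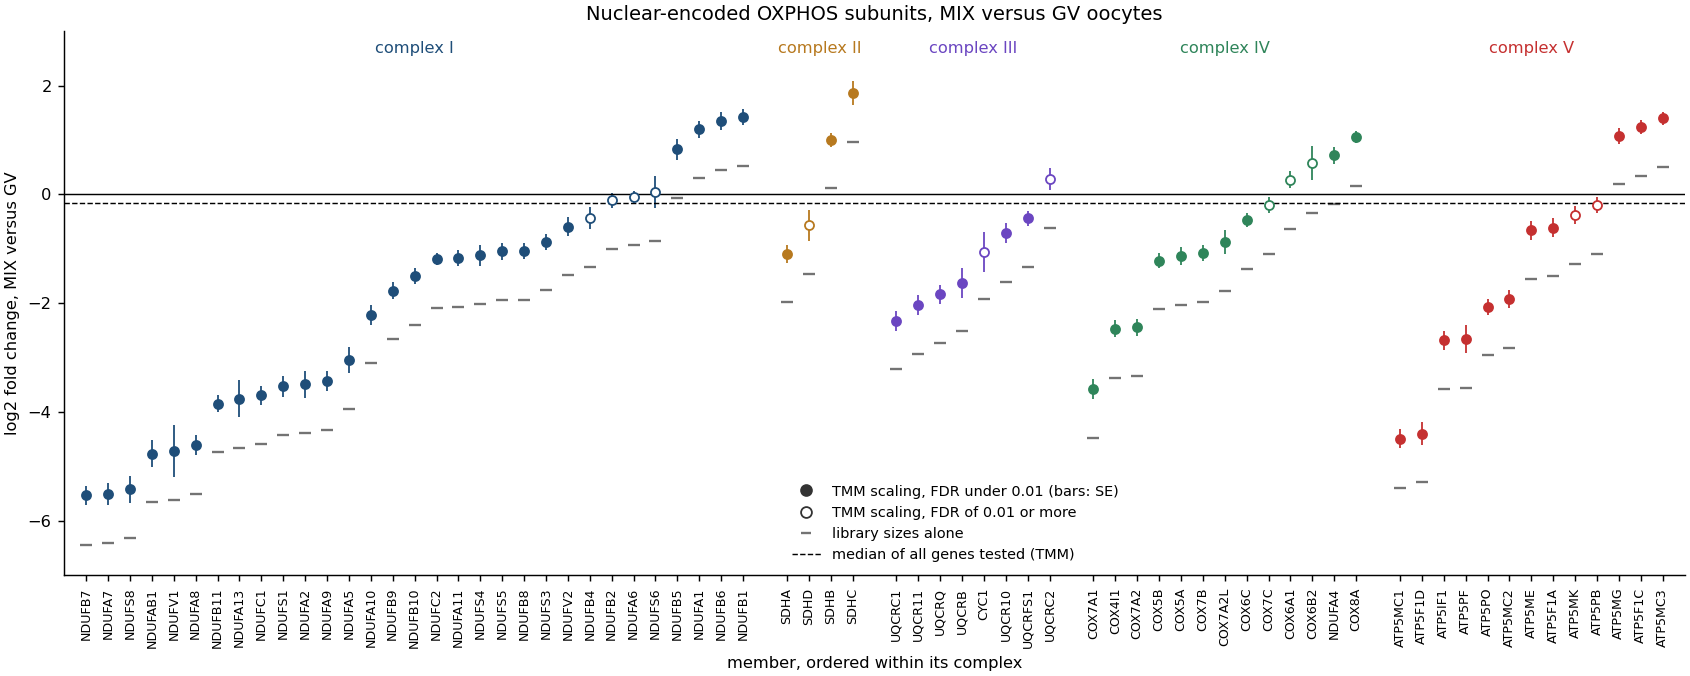
Log2 fold change of MIX versus GV (y axis) of the members tested, 1 left out, ordered within each complex (x axis), with standard errors. Filled points passed an FDR of 0.01, grey dashes give the same value on library sizes alone, and the dashed line is the median of all genes with TMM factors, -0.16. Members run from -5.53 for NDUFB7 to 1.87 for SDHC, and 11 filled points lie above 0, of which NDUFB5 and NDUFA4 lie below it on library sizes.

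To compare the complexes with each other, TPM of the members were summed within each library. All members together came to 27241, 25583, 25192 and 21989.8 TPM in GV replicates 1, 2, 4 and 5, or 2.50% of all TPM on average, and to between 7663 and 10147 TPM in MIX, or 0.934%. No MIX library reached the lowest GV library, and GV replicate 3 (18272 TPM) lay between both. Complex III went from 2515 ± 242 TPM (SD, n = 4) to 548 ± 90.9 TPM (SD, n = 10), which left 21.8% of its GV level. Complexes V, IV and I were left with 29.9, 35.4 and 45.1% of theirs. Complex II, with 939 ± 87.1 TPM in GV and 799.9 ± 76.4 TPM in MIX, kept 85.2%, and its ranges in both groups overlapped. TPM add up to the same total in every library, so these percentages carry the scale of library sizes. In sums of CPM with TMM factors, which are not divided by length, MIX held 41.4% of the GV level for complex III, 56.4% for complex I, 72.7% for complex V, 74.0% for complex IV and 169% for complex II, so that complex I lay below complexes IV and V there and above them in TPM.

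The share of the TPM of all members needs no scaling between libraries, but it depends on TPM being divided by length, as the order of complexes I, IV and V above does. By this share complex I took 31.1 ± 0.137% in GV and 37.5 ± 1.15% in MIX, complex II 3.76 ± 0.295% and 8.57 ± 0.554%, complex III 10.1 ± 0.261% and 5.85 ± 0.681%, complex IV 26.9 ± 0.700% and 25.4 ± 1.06%, and complex V 28.2 ± 0.768% and 22.7 ± 1.03% (SD, n = 4 and n = 10). For complexes I, II, III and V the 10 MIX shares lay wholly to one side of the 4 GV shares. The shares of complex IV overlapped between the groups. Values of MII and ‘damaged’ overlapped in each complex, both for the sums and for the shares.

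**Figure D2:**
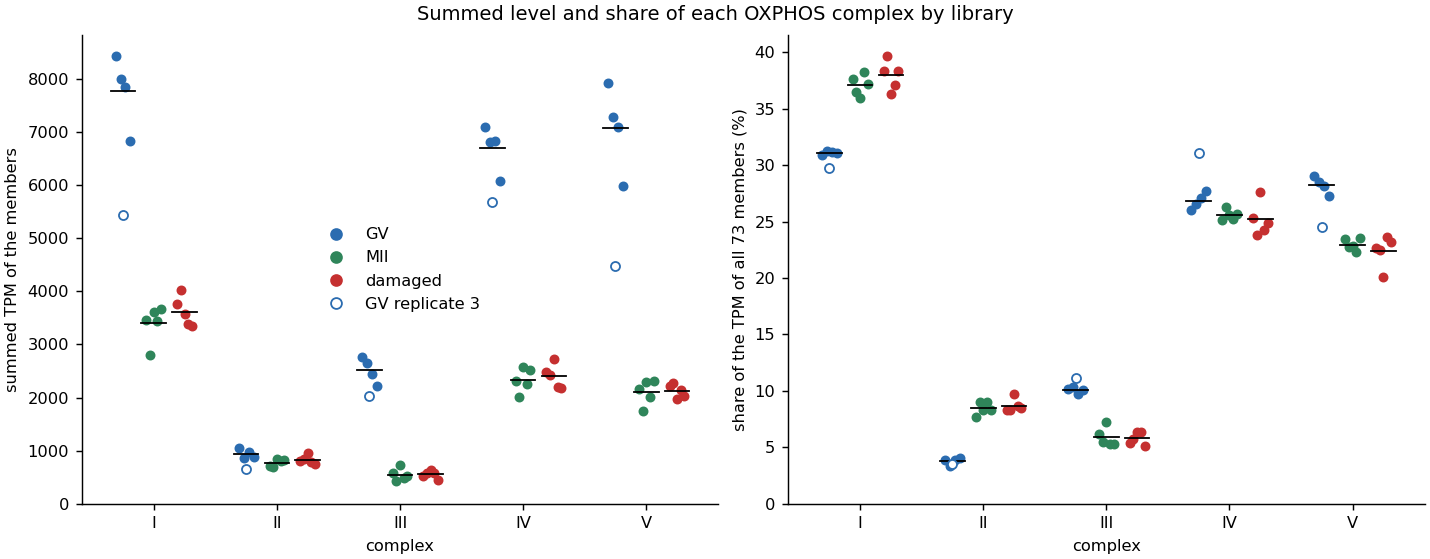
Summed TPM of the members of each complex (left, y axis) and share of each complex in the TPM of all 73 members in percent (right, y axis), by complex (x axis), with 1 point per library and a line at the group mean. The open point is GV replicate 3, which is not in the means. Complexes I, III, IV and V sit lower in MII and ‘damaged’ than in GV, complex II overlaps, and its share of the total is higher in all 10 matured libraries.

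Complex I, the NADH dehydrogenase, had 32 members tested, of which 24 fell and 4 rose, with a median log2 fold change of -1.43 (-2.32 on library sizes). The core subunits carry the flavin, the iron-sulfur clusters and the ubiquinone site, and all 6 that were counted fell, on both scalings, although by very different amounts. NDUFS8, an iron-sulfur subunit at chr2:4863295-4867392 of Sscrofa11.1, had 48.2, 33.5, 34.3 and 39.6 CPM in the 4 GV libraries and values between 0.333 and 1.69 with a median of 0.901 CPM in MIX (log2 fold change -5.42 ± 0.25, FDR = 3.80e-13). All MIX libraries were thus far below all GV libraries, a 42.7-fold difference. NDUFV1, which binds FMN and NADH, was at 9.79, 9.82, 10.7 and 15.6 CPM in GV and between 0 and 2.40 with a median of 0.472 CPM in MIX (log2 fold change -4.72 ± 0.48, FDR = 2.63e-08). NDUFV1 and ATP5F1D passed the filter on low counts through the GV libraries alone, so that they could be tested at all only because they were high there. NDUFS1, the largest core subunit, fell 11.5-fold (log2 fold change -3.52), NDUFS3 1.83-fold (-0.87) and NDUFV2 1.51-fold (-0.59). The MIX and GV ranges overlapped for NDUFV2 alone among the 6.

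The other 26 complex I members are accessory subunits, which surround the core. Of these 18 fell and 4 rose (69.2% and 15.4%, against 37.0% and 30.0% of all genes). The member with the lowest log2 fold change of all was NDUFB7, an intermembrane space subunit at chr2:64718892-64723631, with 80.9, 65.0, 65.5 and 58.0 CPM in GV and between 0.901 and 2.13 with a median of 1.38 CPM in MIX (log2 fold change -5.53 ± 0.17, FDR = 9.91e-15). NDUFA7 (chr2:70954844-70961717) was close to it, with 257, 192, 217 and 166 CPM in GV and between 3.08 and 8.04 with a median of 4.29 CPM in MIX (log2 fold change -5.51 ± 0.20, FDR = 3.62e-14). Neither gene had overlapping groups, with 46.3-fold and 45.5-fold differences. NDUFAB1, the mitochondrial acyl carrier protein, fell 27.2-fold, NDUFA8 24.3-fold, NDUFB11 14.4-fold, NDUFA13 (also known as GRIM-19) 13.5-fold and NDUFC1 12.9-fold. NDUFA2, NDUFA9, NDUFA5 and NDUFA10 fell 11.2-fold, 10.8-fold, 8.27-fold and 4.63-fold, and the 6 others that fell besides NDUFB9 (NDUFB10, NDUFC2, NDUFA11, NDUFS4, NDUFS5 and NDUFB8) between 2.05-fold and 2.83-fold. NDUFA13 stood at 6.47 CPM in MII replicate 3 and 8.88 CPM in ‘damaged’ replicate 3, against at most 1.90 CPM in the other MIX libraries.

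Among the highest complex I levels in GV were NDUFB9 and NDUFA1, and they went apart. NDUFB9 had a mean of 1127 ± 201 TPM in GV and 162 ± 17.3 TPM in MIX, and in CPM it had 523, 371, 332 and 240.2 in GV and between 85.1 and 124 with a median of 103 in MIX (log2 fold change -1.77 ± 0.16, FDR = 4.12e-09). NDUFA1, a small membrane subunit encoded on the X chromosome (chrX:98219717-98223873), was at 139, 105, 113 and 75.9 CPM in GV and between 171 and 293 with a median of 250.4 CPM in MIX (log2 fold change 1.20 ± 0.15, FDR = 6.33e-07). Every MIX library was above every GV library, and with 1175 ± 140.5 TPM NDUFA1 became the member with the highest mean level, after rank 8 in GV. NDUFB1, also a membrane subunit, rose from 43.8, 40.3, 38.2 and 28.0 CPM in GV to values between 78.6 and 147 with a median of 100.3 CPM (log2 fold change 1.43 ± 0.15, FDR = 5.32e-08). NDUFB6 rose 2.55-fold (log2 fold change 1.35 ± 0.16, FDR = 2.06e-07), and both it and NDUFB1 stayed higher on library sizes, with log2 fold changes of 0.45 and 0.53. NDUFB5 rose 1.78-fold with TMM factors (log2 fold change 0.83 ± 0.20, FDR = 7.39e-04), but had 290.2, 171, 241 and 131 CPM in GV and between 253 and 486 with a median of 364 CPM in MIX, so that both ranges overlapped, and its log2 fold change on library sizes was -0.07. NDUFA6, NDUFB2, NDUFB4 and NDUFS6 did not pass the test, with log2 fold changes of -0.05, -0.11, -0.43 and 0.04.

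Complex II, succinate dehydrogenase, is part of both the respiratory chain and the citric acid cycle. Of its 4 subunits 2 rose, 1 fell and 1 did not pass, with a median log2 fold change of 0.22, which turned to -0.68 on library sizes. Over all genes 30.0% rose and 37.0% fell. SDHA, the flavoprotein that oxidises succinate, had 42.0, 51.4, 51.3 and 69.6 CPM in GV and between 18.9 and 34.3 with a median of 24.9 CPM in MIX, without overlap (log2 fold change -1.09 ± 0.17, FDR = 6.82e-06). SDHB, the iron-sulfur subunit, had 413, 267, 300.1 and 238 CPM in GV and between 482 and 670.4 with a median of 610.1 CPM in MIX (log2 fold change 1.00 ± 0.13, FDR = 8.34e-07). SDHB was thus higher in every MIX library with TMM factors, while on library sizes its log2 fold change was 0.11. SDHC, a membrane anchor at chr4:89135410-89169164, was at 62.3, 31.1, 46.9 and 23.1 CPM in GV and between 88.5 and 195 with a median of 140.3 CPM in MIX (log2 fold change 1.87 ± 0.22, FDR = 2.62e-07). It had the highest log2 fold change of all members on both scalings (0.97 on library sizes), and its groups did not overlap. SDHD, the other anchor, had 131, 69.7, 118 and 60.3 CPM in GV and between 37.4 and 129.7 with a median of 54.6 CPM in MIX and did not pass (log2 fold change -0.57 ± 0.28, FDR = 0.0761). Its highest MIX values, 129.7 and 121 CPM, were those of ‘damaged’ replicate 3 and MII replicate 3. A fit without these libraries, added after their values were seen, gave a log2 fold change of -0.83. Leaving out the highest MIX values lowers the MIX level by itself, so that fit does not show that SDHD fell.

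Within complex II the balance of the transcripts changed on any scaling. SDHA took 6.32 ± 2.70% of the TPM of the 4 genes in GV and 1.68 ± 0.564% in MIX, and SDHC 4.63 ± 0.908% and 9.68 ± 1.47% (SD, n = 4 and n = 10). SDHB made up 69.5 ± 2.74% in GV and 80.6 ± 3.22% in MIX. SDHD went from 19.6 ± 3.39% to 8.06 ± 3.56%. For all 4 subunits the MIX shares lay to one side of the GV shares in the 14 libraries.

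Complex III, the cytochrome bc1 complex, had 8 members, of which 6 fell while UQCRC2 and CYC1 did not pass, with a median log2 fold change of -1.34 (-2.22 on library sizes). UQCRC1, one of the core proteins, had 31.9, 28.0, 35.8 and 42.4 CPM in GV and between 4.93 and 11.6 with a median of 6.74 CPM in MIX (log2 fold change -2.32 ± 0.18, FDR = 7.11e-10). All MIX libraries were below all GV libraries, and the same held for UQCR11 (log2 fold change -2.03), UQCRQ (-1.84) and UQCRB (-1.62). Its partner core protein UQCRC2 did not pass, with 9.63, 5.51, 8.48 and 7.12 CPM in GV and between 5.59 and 12.3 with a median of 9.34 CPM in MIX (log2 fold change 0.28 ± 0.20, FDR = 0.22), and had -0.62 on library sizes. UQCRB, which binds ubiquinone, was the complex III gene with the highest level in GV, 1119.7 ± 169 TPM, and had 322, 267, 216 and 176 CPM there. In MIX it had 165 CPM in MII replicate 3 and 170.0 CPM in ‘damaged’ replicate 3, and at most 90.1 CPM in the other 8 libraries.

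CYC1 and UQCRFS1 carry the haem and iron-sulfur centres among the nuclear-encoded subunits of complex III. CYC1, which is cytochrome c1, had 9.69, 15.9, 20.2 and 24.3 CPM in GV and between 2.13 and 14.6 with a median of 9.77 CPM in MIX and missed the threshold (log2 fold change -1.05 ± 0.37, FDR = 0.0139), with 2.13 and 3.0 CPM as its lowest values in the same pair of libraries. UQCRFS1, the Rieske iron-sulfur protein, fell 1.36-fold, with overlapping groups (log2 fold change -0.44 ± 0.14, FDR = 0.00895). It lost the call in most alternatives, among them edgeR and DESeq2 (log2 fold changes of -0.43 and -0.39). UQCR10 fell 1.64-fold, also with overlapping groups (log2 fold change -0.72 ± 0.19, FDR = 0.00173), and lost the call without GV replicate 1 (log2 fold change -0.53).

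Complex IV, cytochrome c oxidase, had 13 of 16 members tested, of which 8 fell and 2 rose, with a median log2 fold change of -0.88 (-1.77 on library sizes). COX4I1, the regulatory subunit that binds ATP, had 96.3, 71.9, 73.1 and 68.1 CPM in GV and between 10.5 and 22.0 with a median of 12.9 CPM in MIX (log2 fold change -2.47 ± 0.16, FDR = 2.68e-11). Its alternative form COX4I2 had at most 5.99 counts in any of the 15 libraries and was not tested, and COX6A2 and NDUFA4L2, the alternative forms of COX6A1 and NDUFA4, had at most 7.09 and 11.3 counts. Each of the 3 was thus near or below the limit of detection at this depth, and the other form held at least 98.9% of the TPM of its pair in every library. COX6A1 itself did not pass (747, 518, 548 and 388 CPM in GV, between 503 and 788 with a median of 662 CPM in MIX, log2 fold change 0.27 ± 0.16, FDR = 0.125) and had -0.63 on library sizes. COX6B2, a form known from testis, was at 1.68, 1.35, 1.25 and 0.589 CPM in GV and between 0.9903 and 2.64 with a median of 1.71 CPM in MIX and did not pass (log2 fold change 0.58 ± 0.31, FDR = 0.0968).

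The 3 genes of the COX7A family all fell, by different amounts. COX7A1, the form known from heart and muscle at chr6:45519225-45520721, had 42.0, 39.2, 32.7 and 28.7 CPM in GV and between 1.92 and 4.55 with a median of 2.69 CPM in MIX (log2 fold change -3.58 ± 0.18, FDR = 1.50e-12). COX7A2, the widely expressed form, had 158, 149, 137 and 109 CPM in GV and between 16.0 and 32.9 with a median of 26.4 CPM in MIX (log2 fold change -2.44 ± 0.16, FDR = 4.07e-11). Both were lower in every MIX library than in every GV library. COX7A2L, which joins complexes III and IV in supercomplexes, had 1134, 716, 939 and 574 CPM in GV and between 263 and 718 with a median of 427 CPM in MIX (log2 fold change -0.88 ± 0.22, FDR = 0.00117). Its groups overlapped, since ‘damaged’ replicate 3 lay above GV replicates 2 and 5, and ‘damaged’ replicate 1 above GV replicate 5. COX7A2L was the member with the highest mean level in GV, at 1858 ± 269 TPM, and held 55.0 ± 4.89% of the TPM of the 3 genes in GV and 78.4 ± 3.90% in MIX.

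The risers of complex IV were COX8A and NDUFA4, neither of which passed on library sizes. COX8A, a small subunit of the membrane part, had 149, 102, 125 and 95.8 CPM in GV and between 218 and 262 with a median of 237 CPM in MIX (log2 fold change 1.05 ± 0.12, FDR = 1.03e-07). NDUFA4, first assigned to complex I and now placed in complex IV, had 52.6, 45.2, 45.0 and 28.4 CPM in GV and between 54.1 and 81.9 with a median of 69.2 CPM in MIX (log2 fold change 0.72 ± 0.15, FDR = 2.37e-04). For both, all MIX libraries were above all GV libraries in CPM. COX5A, COX5B and COX7B fell 2.196-fold, 2.33-fold and 2.11-fold, COX6C fell 1.39-fold, and COX7C did not pass (log2 fold change -0.19).

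Complex V had 13 members, of which 8 fell and 3 rose, with a median log2 fold change of -0.66 (-1.56 on library sizes). The F1 part, which holds the catalytic head and the central stalk, was represented by 3 genes, of which 2 fell and 1 rose. ATP5F1D, the delta subunit of the central stalk, had 12.4, 12.4, 10.2 and 15.0 CPM in GV and between 0.329 and 0.832 with a median of 0.573 CPM in MIX (log2 fold change -4.40 ± 0.21, FDR = 7.57e-13). It passed the filter on low counts through the GV libraries alone, so that it could be tested only because it was high there. ATP5F1C, the gamma subunit of the same stalk, had 123, 96.2, 101 and 96.0 CPM in GV and between 183 and 329.6 with a median of 239 CPM in MIX (log2 fold change 1.24 ± 0.13, FDR = 5.43e-08). Neither gene had overlapping groups, and on library sizes ATP5F1C stayed positive (0.35) without passing. ATP5F1A, the alpha subunit, had 316, 202, 243 and 201 CPM in GV and between 113 and 272 with a median of 146 CPM in MIX (log2 fold change -0.61 ± 0.18, FDR = 0.00443). Its groups overlapped, with ‘damaged’ replicate 3 as the highest MIX library. The genes of the beta and epsilon subunits were not analysed here.

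The ring of c subunits, through which protons pass, is built from 1 mature protein encoded by 3 genes that differ in their import sequences. ATP5MC1 had 311, 202, 231 and 158 CPM in GV and between 5.78 and 11.7 with a median of 10.3 CPM in MIX (log2 fold change -4.49 ± 0.17, FDR = 7.54e-14), a 22.5-fold fall. ATP5MC2 had 225, 165, 157 and 159 CPM in GV and between 36.7 and 78.7 with a median of 41.5 CPM in MIX (log2 fold change -1.93 ± 0.17, FDR = 2.31e-09). ATP5MC3 went the other way, with 117, 95.1, 90.8 and 76.8 CPM in GV and between 209.9 and 281 with a median of 258 CPM in MIX (log2 fold change 1.40 ± 0.12, FDR = 2.60e-09), and stayed higher on library sizes (0.51). None of the 3 genes had overlapping groups. ATP5MC1 made up 86.1 ± 1.97% of their joint TPM in GV and 26.1 ± 4.19% in MIX, and ATP5MC3 3.07 ± 0.329% and 54.7 ± 5.01% (SD, n = 4 and n = 10). In MIX, ATP5MC3 thus held the largest share of the 3 in each of the 10 libraries, between 47.7 and 63.6%, while their joint level went from 950.5 ± 100.3 TPM to 69.4 ± 6.36 TPM. How alike the transcripts of the 3 genes are in sequence was not checked here. Reads from them may be split with error between the genes.

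**Figure D3:**
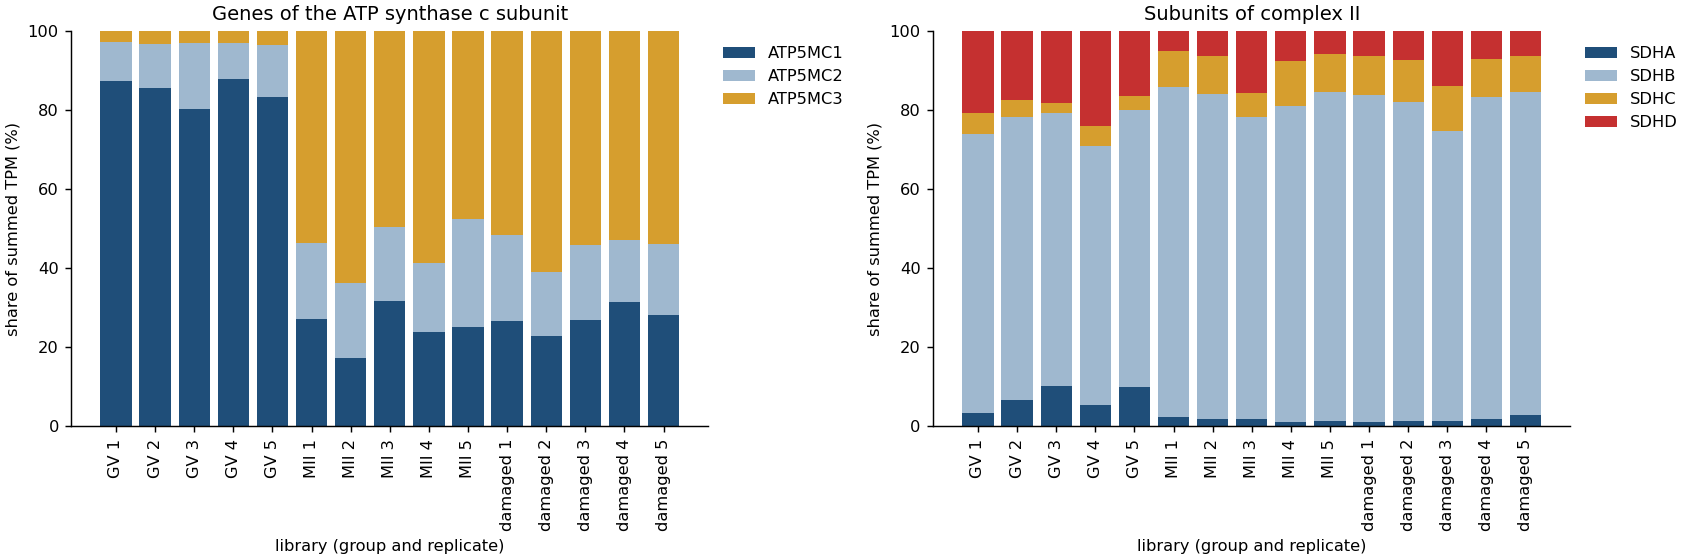
Share of each gene in the summed TPM of its set in percent (y axis) by library (x axis, group and replicate number), for the 3 genes of the ATP synthase c subunit (left) and the 4 subunits of complex II (right), each bar adding up to the whole. ATP5MC1 holds most of the left bars in all 5 GV libraries and ATP5MC3 the largest part in all 10 matured libraries, and in the right bars SDHA is smaller and SDHC larger in the matured libraries than in GV replicates 1, 2, 4 and 5.

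The other parts of complex V also went both ways. ATP5IF1, the inhibitor protein that blocks ATP hydrolysis, was at 318, 197, 242 and 150.2 CPM in GV and between 26.6 and 47.2 with a median of 32.8 CPM in MIX (log2 fold change -2.68 ± 0.17, FDR = 3.32e-11). It was among the 3 members with the highest level in GV, at 1545 ± 243 TPM, and had rank 19 in MIX. ATP5PO, the OSCP subunit of the outer stalk, had 400.3, 311, 293 and 199.95 CPM in GV and between 55.8 and 80.7 with a median of 69.3 CPM in MIX (log2 fold change -2.06 ± 0.15, FDR = 1.38e-10). Neither had overlapping groups, and ATP5PF, also of the outer stalk, fell 6.31-fold. ATP5PB, another outer stalk subunit, did not pass (169, 131, 127 and 107 CPM in GV, between 88.9 and 161 with a median of 112 CPM in MIX, log2 fold change -0.20 ± 0.15, FDR = 0.25). ATP5MG, a membrane subunit, rose with TMM factors from 291, 213, 208 and 144 CPM in GV to values between 369 and 513 with a median of 439 CPM (log2 fold change 1.08 ± 0.14, FDR = 1.07e-06). ATP5ME fell 1.58-fold with overlapping groups, and ATP5MK, which had the second highest level in GV (1823 ± 242 TPM), did not pass (log2 fold change -0.38 ± 0.16, FDR = 0.0434).

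The order of the members changed with maturation. In GV the highest mean levels were those of COX7A2L, ATP5MK, ATP5IF1, COX7A2 and ATP5PO, and in MIX those of NDUFA1, COX8A, NDUFB1, ATP5MG and ATP5MK. COX7A2L held rank 8 in MIX, COX7A2 rank 18 and ATP5PO rank 15. The 11 members that rose, which this contrast itself picked out, took 19.9 ± 0.368% of the TPM of all members in GV and 57.2 ± 1.81% in MIX. Levels within complex I also spread out. The interquartile range of log2(TPM + 0.1) over its members was 1.61 ± 0.0953 in GV and 3.84 ± 0.304 in MIX, against 4.06 ± 0.110 and 4.86 ± 0.0475 over all genes tested. For complex IV it was 1.61 ± 0.144 and 1.44 ± 0.302, for complex V 3.02 ± 0.213 and 2.99 ± 0.171, and for complex III, where it was lower in MIX, 4.93 ± 0.282 and 3.82 ± 0.348.

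Transcript length, weighted by the TPM of each transcript, had a median of 1250.5 bases over the 70 members and of 2921 bases over all genes tested. Among members it was 1403 bases for those that fell and 849 bases for those that rose, and over all genes 2659 and 2985 bases. Across the members, log2 fold change had a Spearman correlation of -0.05 with length and of 0.09 with the mean GV level in TPM, against 0.08 and 0.13 across all 13222 genes, where genes share libraries and are no independent replicates. Positions on Sscrofa11.1 were known by symbol for 45 members.

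Which transcript of a gene was used changed for 3 of the 27 members with at least 2 transcripts tested, against 41.6% of 5304 genes. By the thresholds of an FDR under 0.01 and a difference in isoform fraction over 0.1, 5 of 69 transcripts of members were called, against 28.7% of all 14542 transcripts tested. In ATP5PB, whose gene level did not pass, transcript ENSSSCT00000093812.1 (918 bases) made up 47.3 ± 7.03% of the TPM of the gene in GV and 19.2 ± 3.10% in MIX, and ENSSSCT00000063697.2 (1286 bases) 38.6 ± 9.51% and 65.8 ± 6.69% (FDR = 4.27e-06 and 3.82e-05 by the diffSplice test of limma). All MIX libraries lay to one side of all GV libraries for both. In SDHA, ENSSSCT00000104859.1 (2353 bases) went from 70.1 ± 13.7% to 40.8 ± 11.8% and ENSSSCT00000070340.2 (2103 bases) from 28.2 ± 13.7% to 54.3 ± 12.8% (FDR = 0.00125 and 0.00911), with overlap between the groups. In NDUFA10, ENSSSCT00000017804.5 made up 94.1 ± 4.48% in GV and 55.1 ± 27.5% in MIX (FDR = 0.00311), and the MIX libraries ranged from 0 to 99.6%, at a gene level of 3.87 CPM on average.

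Set against GV on its own, each matured group was compared in the same fit, and since both comparisons share the GV libraries their values are given side by side. In MII versus GV, 43 members fell and 11 rose, against 34.2% and 28.2% of all genes (62.4% in either direction). By the DEG threshold 23 were lower and 0 higher, against 17.0% and 4.51% of all genes, and 59 had an unadjusted p under 0.05, against 73.7%. In ‘damaged’ versus GV, 45 fell and 11 rose, against 33.4% and 28.0% of all genes (61.4% in either direction). By the DEG threshold 25 were lower and 0 higher, against 16.4% and 4.08% of all genes, and 61 had an unadjusted p under 0.05, against 72.7%. In both comparisons edgeR and DESeq2 also found 0 higher by the DEG threshold. The median log2 fold change was -1.07 in MII and -1.15 in ‘damaged’. NDUFB7 had log2 fold changes of -5.56 and -5.51, ATP5MC1 of -4.55 and -4.43, COX4I1 of -2.27 and -2.67, and SDHC of 1.76 and 1.97.

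Whether ‘damaged’ oocytes, which had no polar body, differ from MII oocytes was tested between the matured groups directly, a comparison that rests on the labels of the transcript files. For replicates 1 and 2 of both groups the deposited gene counts sum to the totals of other libraries, and which labels are right was not settled. No member passed an FDR of 0.01 (limma-voom), as no gene did (0% of all genes), and 0 of 70 members had an unadjusted p under 0.05, against 1.47% of all genes. edgeR and DESeq2 also called 0 members and had 1 member each with an unadjusted p under 0.05. The median log2 fold change of the members was -0.02, and single members ranged from -0.47 to 0.44. The member with the smallest p was COX4I1, with 22.0, 12.9, 18.5, 10.7 and 18.7 CPM in MII and 12.8, 10.5, 13.4, 11.12 and 12.4 CPM in ‘damaged’. The groups overlapped, as they did for all 70 members tested, where 0.272% of all genes had groups without overlap. Its log2 fold change was -0.40 (95% interval -0.81 to 0.02, unadjusted p = 0.0583), with an FDR of 1.000. The next smallest p-values belonged to NDUFS6 0.44 (95% interval -0.25 to 1.12, unadjusted p = 0.202), ATP5F1D -0.47 (95% interval -1.21 to 0.27, unadjusted p = 0.203) and COX5A -0.26 (95% interval -0.66 to 0.15, unadjusted p = 0.204). By complex, summed TPM of MII and ‘damaged’ were 3396 ± 349 TPM and 3618 ± 285 TPM for complex I, 772 ± 68.7 TPM and 828 ± 80.5 TPM for complex II, 543 ± 118 TPM and 553 ± 68.2 TPM for complex III, 2338 ± 222 TPM and 2401 ± 226 TPM for complex IV, and 2103 ± 239 TPM and 2129 ± 128 TPM for complex V (SD, n = 5 each). A member that misses the threshold is not shown to be equal in both groups, and the intervals give the differences that these libraries allow. They were narrowest for COX8A (-0.29 to 0.23) and widest for NDUFV1 (-1.64 to 1.80).

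**Figure D4:**
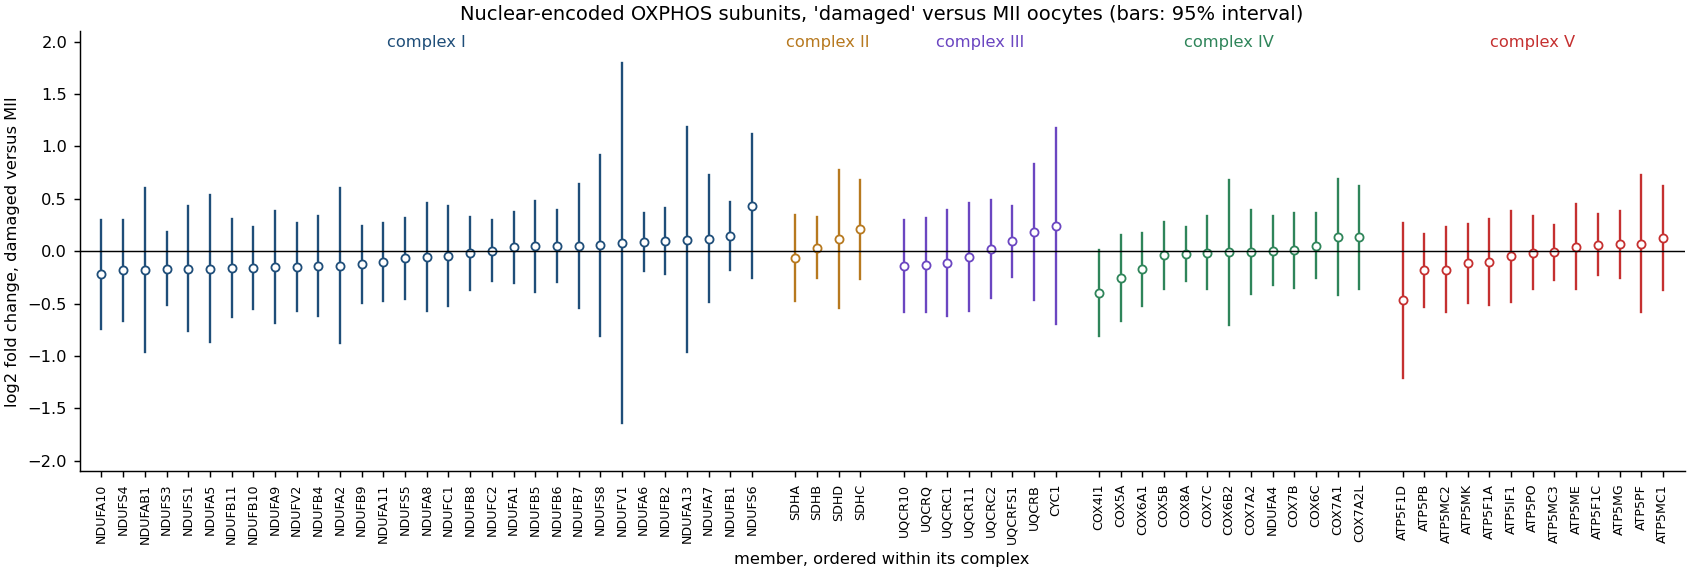
Log2 fold change of ‘damaged’ versus MII (y axis) of the members tested, 1 left out, ordered within each complex (x axis), with 95% intervals from limma. Open points mark an FDR of 0.01 or more, which holds for all of them, and every interval includes 0.

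The 13 subunits encoded by the mitochondrial genome belong to the same complexes, apart from complex II, and are set beside the nuclear ones here. With TMM factors 10 of the 13 rose (76.9%, against 30.0% of all genes) and 3 did not pass, with a median log2 fold change of 1.08. On library sizes none passed in limma-voom, against 60.0% of all genes lower and 11.9% higher. There 0 had an unadjusted p under 0.05, against 80.3% of all genes, and the median was 0.18. CYTB of complex III was at 675 ± 128 CPM in GV, against 1944 ± 781 CPM in MIX (log2 fold change 1.42 ± 0.29), and COX1 of complex IV 7090.1 ± 982 and 17509 ± 5048 CPM (1.26 ± 0.20). Both had a log2 fold change above that of every nuclear-encoded member of their complex. The 7 ND genes of complex I had a median of 1.00, with 5 past the threshold, and ATP6 and ATP8 of complex V had 0.87 ± 0.23 and 1.13 ± 0.22. Summed TPM of the mitochondrially encoded subunits was 1.996, 3.41, 3.36 and 3.77 times that of the nuclear members in the 4 GV libraries, and between 4.68 and 13.4 times with a median of 8.92 in MIX. This ratio needs no scaling between libraries, and the groups did not overlap, but GV replicate 3, left out of the fit, had 15.9. Within MIX the ratio was lowest in MII replicates 5 and 3 and in ‘damaged’ replicate 3.

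**Figure D5:**
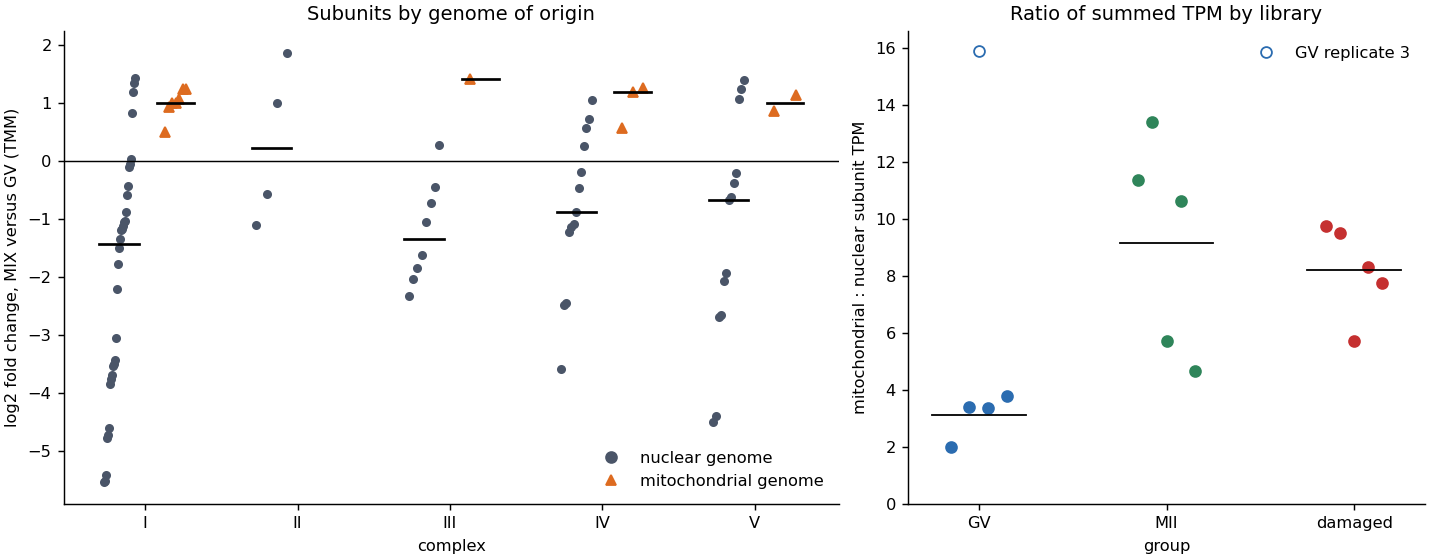
Left, log2 fold change of MIX versus GV with TMM factors (y axis) of nuclear-encoded (circles) and mitochondrially encoded (triangles) subunits by complex (x axis), with lines at the medians. Right, ratio of the summed TPM of mitochondrially encoded to that of nuclear-encoded subunits (y axis) by group (x axis), with 1 point per library, a line at the mean and GV replicate 3 as the open point outside the mean. The 13 triangles lie between 0.50 and 1.42, values that shift to between -0.40 and 0.52 on library sizes, and the ratio is higher in MII and ‘damaged’ than in the 4 GV libraries of the fit.

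Assembly factors build the complexes without being part of them, and 45 of 48 were tested. Of these 27 fell and 8 rose (60.0% and 17.8%, against 37.0% and 30.0% of all genes), with a median log2 fold change of -0.88 (-1.78 on library sizes). PET100 and SCO2, both of complex IV assembly, fell from 32.1 ± 6.40 and 4.99 ± 1.43 CPM in GV to 0.723 ± 1.02 and 0.0212 ± 0.0669 CPM in MIX, SCO2 being at 0 in all 5 ‘damaged’ libraries. Both passed the filter on low counts through the GV libraries alone. SDHAF4, an assembly factor of complex II, rose from 8.57 ± 2.32 to 51.5 ± 5.38 CPM (log2 fold change 2.62 ± 0.16), and NUBPL, which delivers iron-sulfur clusters to complex I, from 15.4 ± 9.17 to 54.1 ± 7.02 CPM (2.03 ± 0.25). These 4 genes, which kept their direction on library sizes, were chosen after their values were seen, as the 2 lowest and 2 highest of the list.

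Of 7 genes for the electron carrier and the export of ATP, 4 rose and 2 fell (57.1% and 28.6%, against 30.0% and 37.0% of all genes). Their median was 0.52 and turned to -0.38 on library sizes. CYCS, cytochrome c itself, had a log2 fold change of 0.52 ± 0.16 with TMM factors and -0.38 on library sizes. Among the ADP/ATP carriers, SLC25A6 fell (-2.79 ± 0.23), SLC25A4 did not pass (-0.39 ± 0.22), and SLC25A5 had 0.69 ± 0.13 with TMM factors and -0.20 on library sizes. Of 8 listed regulators of OXPHOS genes, 6 were tested, and PPARGC1A and PPARGC1B had too few counts. GABPA and GABPB1 rose (1.5 ± 0.12 and 0.88 ± 0.12), and GABPB1 had -0.02 on library sizes. YY1 and ESRRA fell (-2.37 ± 0.20 and -1.75 ± 0.35, ESRRA having passed the filter through GV alone). NRF1 and TFAM did not pass (0.15 ± 0.18 and 0.94 ± 0.46), TFAM having passed the filter through MIX alone. For comparison with other large complexes, 41 of 64 mitochondrial ribosomal protein genes fell (64.1%) and 15 rose (23.4%), with a median of -1.37. In the cytosolic ribosome 36 of 56 protein genes fell (64.3%) and 10 rose (17.9%), with a median of -1.30, next to -1.10 for the OXPHOS members. Over all genes 37.0% fell and 30.0% rose. Whether the lists differ was not tested.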

How the data were processed

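RNA of 15 pig oocyte libraries, for which the study describes 5 independent collections, each with 15 oocytes from every group, was amplified with a SMART-Seq kit and sequenced as single-end reads. The authors quantified transcripts of Sscrofa11.1 with Kallisto 0.43 and deposited, per library, estimated counts and TPM of every transcript, and for the whole series a gene table of estimated counts scaled by transcript length (tximport), as is read from its values. For 8 of the 15 columns of that table the sum equals that of the library in the column's name, and these were used. The remaining 7 sum to the total of some other library, so nothing was taken from them. These 7 are named as replicates 1, 2 and 3 of GV and as replicates 1 and 2 of MII and of ‘damaged’. Each gene's transcripts were found from the 8 columns, for 18221 of the 18954 genes with a count there. The scaled counts were recomputed for all 15 libraries from the deposited transcript values, rounded for DESeq2 alone. The labels of group and replicate, and with them the split into MII and ‘damaged’, therefore follow the transcript files.

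Genes were kept with edgeR 4.0.16 (filterByExpr, minimum count 10, minimum total 15), scaled by TMM factors (1.35 to 1.73 in GV, 0.79 to 0.92 in MIX), and tested with limma 3.58.1 (voom) in R 4.3.3, in 1 fit of the 3 groups on 14 libraries without GV replicate 3. The study removed a GV library for its low depth without naming it, and the one with the lowest total was taken. MIX versus GV is the mean of both matured groups against GV. P-values were adjusted over all genes (FDR, Benjamini-Hochberg). Isoform usage was tested with diffSplice. A simulation of MIX versus GV with 13073 genes had 200 of them changed by 3 on the log2 scale. As many went up as down, at a dispersion of 0.05. All 200 were recovered with 0 false calls, and in a simulation of isoform usage with 14691 transcripts all 200 with 7 false calls. In the data 67.0% of all genes passed, so a simulation with few and balanced changes cannot test the scaling by TMM factors. Total counts of 11.96 to 23.6 M in the 14 libraries of the fit set the precision, and p-values measure the spread between the libraries.

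Members, gene lists and tests were chosen with earlier results of these data known. Genes named in the text are, in each complex, the 3 with the highest GV level and the 3 lowest and 2 highest log2 fold changes, with all risers, complex II genes, CYC1, paralogs, members with called isoforms, untested members and the 5 smallest p-values of ‘damaged’ versus MII. 1 member that meets this rule is not reported here by name. Others are named to complete a family or role and were chosen after their values were seen. Alternatives were library sizes, edgeR, DESeq2 1.42.0, all 5 GV libraries, other filters, summed counts, a replicate block and leaving out each library. Libraries were not treated as paired by number, so any variation that a collection shared stays in the spread between libraries. No sequence of a member was used here.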

Additional observations from a re-analysis of the deposited data

Results flagged for a closer look

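Of 144 sets of 4 or 5 libraries of a group that were examined for the named members and for the complexes, 10 had 1 library far from the others (Dixon's ratio of its gap to the whole range). Chance gives about 1 in 20 such flags. CPM of ATP5MC2 were 225 in GV replicate 1, against 157 to 165 in the other GV libraries, and 78.7 in MII replicate 5, against 40.5 to 48.9 in the other MII libraries. ATP5MC3 had 209.9 CPM in MII replicate 3, against 257 to 262. UQCRB had 165 CPM and CYC1 2.13 CPM in MII replicate 3, against 49.7 to 69.2 CPM and 8.97 to 11.7 CPM in the other MII libraries.

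NDUFA1 had 203 CPM in MII replicate 2, against 243 to 257, and the summed TPM of complex I was 2796 in that library, against 3435 to 3667. SDHD had 129.7 CPM and UQCR11 5.61 CPM in ‘damaged’ replicate 3, against 40.4 to 62.6 CPM and 2.80 to 3.57 CPM in the other ‘damaged’ libraries. UQCRFS1 had 35.5 CPM in MII replicate 5, against 20.1 to 23.7.

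MII replicate 3 and ‘damaged’ replicate 3 had the 2 highest MIX values of UQCRB and SDHD and the 2 lowest of CYC1. Without both libraries, an alternative added after these values were seen, 56 of the 58 members that had passed in MIX versus GV kept their call.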

How the results depend on the processing

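In MIX versus GV, the 58 calls of members all kept their direction under every alternative but library sizes, where NDUFB5 (log2 fold change -0.066) and NDUFA4 (-0.18) turned negative without passing. COX6A1 (-0.63) and UQCRC2 (-0.62), not called with TMM factors, also turned negative there. Library sizes left 4, 2 and 4 members higher in MIX, MII and ‘damaged’ versus GV, with member medians of -2.0, -1.99 and -2.03 and medians of complexes I to V of -2.32, -0.68, -2.22, -1.77 and -1.56. With a filter of 10 CPM the member medians were -1.46, -1.45 and -1.52 and those of the complexes -1.82, -0.10, -1.94, -1.30 and -0.98. The median of complex II, 0.22 with TMM factors, thus turned negative in both. With all 5 GV libraries, complex I had a median of -1.28 and the members in ‘damaged’ versus GV -1.03, and 1 member was higher by over 2 in each of the 3 comparisons with GV (SDHC in MIX versus GV, 2.11). Without the filter on low counts 1 member was higher by over 2 in ‘damaged’ versus GV.

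Leaving out each library in turn, the number of members higher by over 2 was 0 to 1 in each comparison with GV, and the number lower at an FDR under 0.01 was 43 to 49 in MIX, 41 to 46 in MII and 40 to 48 in ‘damaged’. The member median was -1.25 to -1.01 in MIX, -1.21 to -0.96 in MII and -1.27 to -1.08 in ‘damaged’ (the lowest MIX and MII values without GV replicate 5). UQCRFS1 lost its call in 18 of 23 alternatives. Called transcripts were 10 with all 5 GV libraries, 13 without the filter and 8 on library sizes, against 5.

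As a sum of CPM with TMM factors in place of TPM, MIX held 56.4, 169, 41.4, 74.0 and 72.7% of the GV level in complexes I to V. CPM sums weight long transcripts more.

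The study describes collections that each gave oocytes of every group, but no source says that a replicate number marks a collection. Of the 13 pairs of libraries with the same number in 2 groups, 12 had deviations with r above 0 and 3 with r above 0.1 (range -0.10 to 0.32, median 0.072, against -0.0088 for the other pairs), and 9 of 14 libraries had their highest r with a library of their own number, a hint from the data and not the design. With the replicate number as a block, 48 members were lower and 11 higher in MIX versus GV, 57 of 58 calls were kept, UQCRFS1 lost its call and CYC1 (-0.66) and SDHD (-0.84) gained one, and 0 members passed in ‘damaged’ versus MII. No alternative called a member in ‘damaged’ versus MII, edgeR and DESeq2 included. NDUFV1, NDUFA13 and CYC1 had the widest intervals in ‘damaged’ versus MII, and COX4I2, COX6A2 and NDUFA4L2 could not be tested.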
